A study of Mus musculus with 4 samples.

Results

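The data described here concern 10 genes that cells switch on within minutes of a stimulus or a stress. They are the AP-1 subunits *Fos*, *Fosb*, *Jun* and *Junb*, the transcription factors *Egr1* and *Atf3*, the regulator *Ier2*, the feedback inhibitors *Dusp1* and *Zfp36*, and the inducible chaperone *Hspa1a*. The members were chosen by name, as the rows of these symbols in all 4 count matrices, and they are 10 of the 21739 gene symbols that the matrices list. The rule itself uses no measured value.

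Skin around full-thickness wounds of C57/BL6j mice was profiled by droplet single-cell RNA sequencing, with 1 library per mouse. The mice were 6 weeks old, and the skin was taken on day 7 after wounding. The titles name 2 Control libraries, from mice injected with PBS, and 2 hucMSC-Exo libraries, from mice that received 100 µg of exosomes per injection from human umbilical cord mesenchymal stem cells. All 4 mice carried the same wound, and the skin was dissociated enzymatically into single cells before capture. Group and replicate follow the titles. The letters within the names of the deposited matrices pair Control 1 with hucMSC-Exo 1 and Control 2 with hucMSC-Exo 2, so a direction between the groups rests on the titles, and the tissue label names parts of the gut while the other labels and the study's methods name skin.

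Immediate early genes need no new protein to be transcribed: kinases of the MAPK family act on factors already bound at their promoters, and the transcripts rise and decay quickly. FOS and JUN proteins pair to form AP-1, DUSP1 takes the activating phosphates off MAPK proteins, and ZFP36 marks short-lived cytokine transcripts for decay, so the response carries its own brake. HSPA1A is a chaperone that binds unfolded protein and is induced through heat shock factor. These genes are also known to respond to enzymatic dissociation of tissue.

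All 10 are protein-coding genes, and their positions are given on GRCm38 (mm10) from the GENCODE vM21 annotation. *Fos* lies on chromosome 12 from 85473890 to 85477273 on the plus strand. *Jun* lies on chromosome 4 from 95049034 to 95052222, *Dusp1* on chromosome 17 from 26505590 to 26562128, and *Hspa1a* on chromosome 17 from 34969190 to 34972156, each on the minus strand. *Hspa1a* has a near-identical neighbour, *Hspa1b*, on chromosome 17 from 34956436 to 34959238, and reads of the pair can be split between them, so both are given as uncertain and side by side.

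Promoter sequences were available from RefSeq (GRCm38.p6) for 8 of the 10 members, and not for *Egr1* and *Ier2*. The 250 bases before the start are shown for 4 members of different roles and class levels: the AP-1 subunits *Fos* and *Jun*, the feedback phosphatase *Dusp1* and the chaperone *Hspa1a*. The *Dusp1* window lies before the RefSeq start, which is inside the longer GENCODE gene. They are read 5′ to 3′ on each gene's own strand, from chr12:85473640-85473889, chr4:95052223-95052472, chr17:26508473-26508722 and chr17:34972157-34972406.
Fos: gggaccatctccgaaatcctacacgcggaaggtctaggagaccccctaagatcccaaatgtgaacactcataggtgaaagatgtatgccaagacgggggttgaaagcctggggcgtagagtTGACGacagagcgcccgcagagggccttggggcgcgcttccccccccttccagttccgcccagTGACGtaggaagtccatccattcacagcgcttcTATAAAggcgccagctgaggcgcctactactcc
Jun: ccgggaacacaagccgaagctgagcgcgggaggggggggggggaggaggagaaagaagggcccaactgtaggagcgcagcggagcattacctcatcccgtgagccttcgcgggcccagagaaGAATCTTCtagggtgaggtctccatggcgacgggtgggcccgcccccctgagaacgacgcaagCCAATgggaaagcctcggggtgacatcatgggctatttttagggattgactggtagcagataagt
Dusp1: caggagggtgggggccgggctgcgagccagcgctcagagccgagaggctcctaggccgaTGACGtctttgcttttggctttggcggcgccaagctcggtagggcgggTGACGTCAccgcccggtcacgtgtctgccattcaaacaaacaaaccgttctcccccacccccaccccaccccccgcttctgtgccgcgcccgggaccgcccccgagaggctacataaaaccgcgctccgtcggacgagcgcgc
Hspa1a: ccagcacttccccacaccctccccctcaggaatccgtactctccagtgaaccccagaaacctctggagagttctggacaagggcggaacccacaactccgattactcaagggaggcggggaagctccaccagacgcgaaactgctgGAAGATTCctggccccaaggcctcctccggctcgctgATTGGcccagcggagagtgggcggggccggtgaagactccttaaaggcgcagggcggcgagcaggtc
Capitals mark the letters searched for, on both strands: the cAMP response half-site TGACG, the AP-1 site TGANTCA, the heat shock element pairs GAANNTTC and TTCNNGAA, the CArG box, TATAAA and CCAAT. *Fos* held 2 half-sites and a TATAAA, and *Dusp1* held 3 half-sites, of which 2 overlap in the full palindrome TGACGTCA. *Hspa1a* held 1 GAANNTTC and 1 CCAAT, and *Jun* held the same kinds of match. TGACG was found in 5 of the 8 members and in 17.8% of all 32851 promoters of that length, and GAANNTTC in 2 of the 8 and in 6.69% of all promoters. The CArG box, the site of serum response factor, was found in *Zfp36* and in 1.47% of all promoters, and no AP-1 site was found in the 8, against 6.75% of all. The same stretch before *Hspa1b* differed from that of *Hspa1a* at 3 of 250 bases. These are matches of letters in short windows, not measured binding.

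The files hold 7178 cells, fewer than the study's text counts for these libraries. Those counts cover whole samples, and the study's methods separate immune cells by *Ptprc* computationally. Whether the files hold only these immune cells is not stated. After the limits the study set, 6443 cells remained, and *Ptprc* was detected in 81.4% to 87.1% of them per library. The limits were 200 to 3000 genes detected in a cell and no more than 10% of UMIs from mitochondria. Kept cells numbered 952 to 2074 per library and held 4779405 to 11243740 UMIs. Each cell was placed in the class of which it showed the largest share of marker genes, and the members were not among the markers, so the classes are called by that likeness only. Of 12 classes, 7 held at least 20 cells in every library and are compared here, with 5823 cells. Their own markers were among their leading genes, the dendritic epidermal T-like class with 1 of 10 and the others with at least 4. Of the 6270 placed cells, 411 (6.56%) led over the next class by no more than 0.05 in the share of markers, and 6 barcodes occurred in more than 1 library. Control 1 is the smallest library and had the highest median mitochondrial share, 3.24% against 2.36% to 2.92%. Within the 7 classes, Control 1 had the highest median only in monocyte-like (2.67%) and alpha beta T-like cells (3.03%). Its cells also carried the most keratinocyte transcripts in 5 of the 7 classes, from 794 to 2672 CPM summed over the 8 keratinocyte markers. The sum was 307 to 1646 CPM in Control 2, 471 to 3040.0 CPM in hucMSC-Exo 1, the highest library in the other 2 classes, and 395 to 1759 CPM in hucMSC-Exo 2, and all 8 markers were detected in every library. The 8 fibroblast markers, also all detected in every library, were highest in Control 2 in all 7 classes, at 454 to 923 CPM against 203 to 584 CPM in the other libraries. When lists of skin markers also competed in placing cells, 390 of the 6443 kept cells fell in a skin class. The classes used here can therefore hold cells more like skin cells. The part of such cells, skin transcripts, depth or mitochondrial share in the levels of the members was not tested. A level is given in CPM, a gene's count scaled to 1000000 UMIs summed over the cells of 1 class in 1 library, and sets of 4 values run through the Control libraries 1 and 2 and then the hucMSC-Exo libraries 1 and 2.

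Which of these genes stood high differed from class to class. Neutrophil-like cells had the highest mean of *Dusp1*, *Egr1* and *Jun*. For *Egr1* and *Jun* their range overlapped that of the next class, the dendritic epidermal T-like cells. Compared within each library, they were above that class in 3 libraries for *Egr1* and in all 4 for *Jun*. Dendritic epidermal T-like cells stood out for *Fosb* and IL-17 gamma delta T-like cells for *Junb*. Neutrophil-like and macrophage-like cells were both higher in *Atf3*, whereas alpha beta T-like cells held little *Fos*, *Jun*, *Atf3* and *Zfp36*. Each class was set against the mean of the other 6 with the library as a block, by edgeR's quasi-likelihood test over 9261 genes with Benjamini-Hochberg adjustment. Of 70 pairs of a member and a class, 46 (65.7%) passed an adjusted p of 0.05, 25 higher and 21 lower. Over all genes and classes the share that passed was 47.1%, so passing was common among all genes. The macrophage-like calls of *Fos*, *Jun*, *Egr1*, *Dusp1* and *Hspa1a* were lost when all deposited cells were kept, with log2 changes of 0.37, 0.30, 0.17, 0.22 and 0.40. In either direction, the share of all genes that passed was 53.5% in neutrophil-like, 51.4% in macrophage-like, 41.4% in monocyte-like, 33.8% in dendritic-like, 56.0% in dendritic epidermal T-like, 45.2% in IL-17 gamma delta T-like and 48.0% in alpha beta T-like cells. In neutrophil-like cells 7 members were higher, where 27.5% of all genes were, and 1 lower (26.0%). In macrophage-like cells 7 were higher (31.3% of all genes) and 1 lower (20.1%), in monocyte-like cells 3 higher (25.7%) and 2 lower (15.7%), and in dendritic-like cells 1 higher (20.5%) and 3 lower (13.4%). In dendritic epidermal T-like cells 5 were higher (30.8%) and 3 lower (25.2%), in IL-17 gamma delta T-like cells 2 higher (22.5%) and 5 lower (22.7%), and in alpha beta T-like cells none was higher (26.8%) and 6 lower (21.3%). The median log2 change of the 10 members was 1.04 in neutrophil-like cells against -0.16 over all genes, and -0.89 in alpha beta T-like cells against 0.04 over all genes. When scaled by library size alone, the median of all genes moved to -0.63 in neutrophil-like cells and to 0.40 in dendritic epidermal T-like cells, and no called pair turned its direction. Beside 25 higher and 21 lower pairs, that scaling gave 26 higher and 26 lower pairs. When the classes of each member are ordered by mean CPM, 56 of 60 neighbouring steps had overlapping ranges between libraries. These ranges leave out that each library holds both classes. Compared within libraries, some overlapping steps held in all 4, as for *Dusp1* in macrophage-like over monocyte-like cells. Others held in fewer, as in 1 library for *Zfp36* in neutrophil-like over monocyte-like cells.

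**Figure D1:**
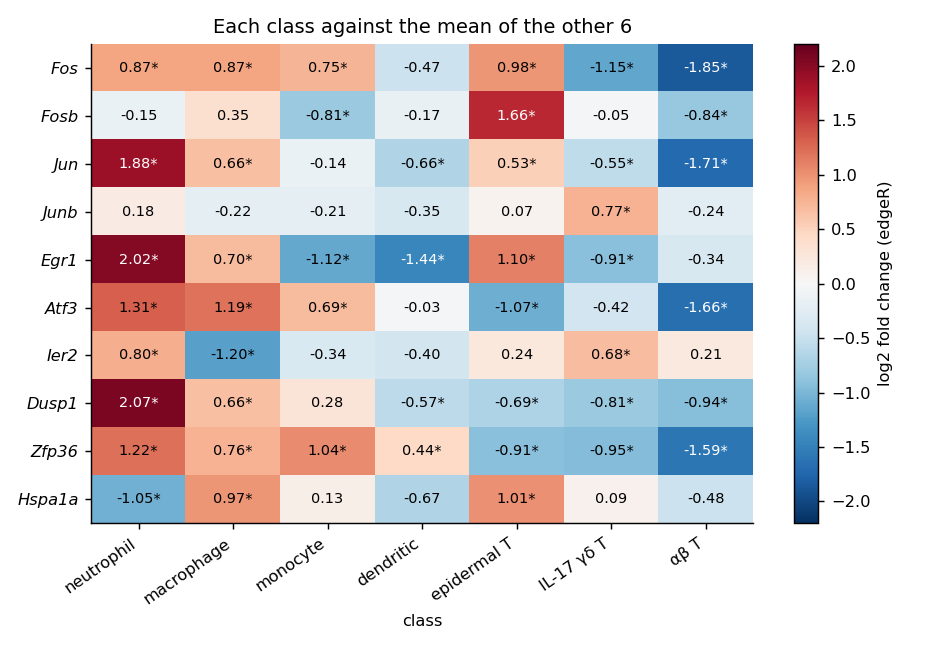
Log2 fold change of each member (rows) in each class (columns) against the mean of the other 6 classes, from edgeR over 4 libraries, with an asterisk where the adjusted p was under 0.05. The neutrophil column is highest for *Dusp1* (2.07), *Egr1* (2.02) and *Jun* (1.88), and the alpha beta T column is lowest for *Fos* (-1.85) and *Jun* (-1.71).

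Among the AP-1 subunits, *Fos* was called higher in 4 classes and lower in 2. Its level in dendritic epidermal T-like cells, the resident T cells of mouse epidermis, was 1129, 1293, 1138 and 1158 CPM, a mean of 1179 ± 76.4 CPM (SD, n = 4), with a log2 change of 0.98 (SE 0.18) against the other classes. In alpha beta T-like cells it was 227, 144, 291 and 178 CPM, with a log2 change of -1.85 (SE 0.22) and an adjusted p of 2.73e-08. The 4 libraries of the first class lay within 1.14 times of each other, and each lay above every library of the second. Macrophage-like cells held 1439, 764, 583 and 1048 CPM, monocyte-like cells 1356, 589.7, 489.8 and 981 CPM and neutrophil-like cells 1630.0, 606, 599.9 and 593 CPM. In these 3 myeloid classes Control 1 was the highest library, and in neutrophil-like cells it stood alone above 3 nearly equal libraries.

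*Fosb*, a close relative of *Fos*, was called higher in 1 class. Dendritic epidermal T-like cells held 357, 556, 637 and 610.4 CPM, a mean of 540.4 ± 127 CPM (SD, n = 4), at a log2 change of 1.66 (SE 0.19) and an adjusted p of 6.07e-09. The next class, macrophage-like cells, held 336, 166, 111 and 277 CPM, and the ranges of the pair did not overlap. Control 1 was the lowest library for *Fosb* in the epidermal T-like cells and the highest in the macrophage-like cells. Monocyte-like cells were lower in *Fosb*, with a log2 change of -0.81 (SE 0.25), and so were alpha beta T-like cells, with -0.84 (SE 0.24). The monocyte-like call was lost without Control replicate 2 (-0.64), without hucMSC-Exo replicate 1 (-0.65) and with no library block (-0.70).

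*Jun* was highest in neutrophil-like cells, at 935, 753, 859 and 1046 CPM and a log2 change of 1.88 (SE 0.15) (adjusted p 2.59e-12). These 4 libraries lay within 1.39 times of each other. Alpha beta T-like cells held 211, 89.5, 171 and 180.0 CPM, with a log2 change of -1.71 (SE 0.20), and every library there was below every neutrophil-like one. *Jun* was also called higher in macrophage-like and dendritic epidermal T-like cells, by 0.66 (SE 0.16) and 0.53 (SE 0.16) on the log2 scale, and lower in dendritic-like and IL-17 gamma delta T-like cells, by -0.66 (SE 0.19) and -0.55 (SE 0.18). Without hucMSC-Exo replicate 2 the calls of dendritic epidermal T-like (0.45), dendritic-like (-0.62) and IL-17 gamma delta T-like cells (-0.41) were lost, and without Control replicate 2 those of dendritic epidermal T-like (0.39) and IL-17 gamma delta T-like cells (-0.46). With no library block all 3 were lost too, at 0.49, -0.64 and -0.52, and with all deposited cells those of dendritic-like (-0.52) and IL-17 gamma delta T-like cells (-0.37).

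*Junb*, the JUN relative with weaker transactivation, was called in 1 class only. IL-17 gamma delta T-like cells held 4422, 2696, 2771 and 2969.5 CPM, a mean of 3214 ± 813 CPM (SD, n = 4), with a log2 change of 0.77 (SE 0.16) and an adjusted p of 0.000174. Every library lay above every library of the next class, the dendritic epidermal T-like cells, at 2107, 2096, 2395 and 2369 CPM. Neutrophil-like cells held 4819, 961, 915 and 1458 CPM, where Control 1 stood apart and the class was not called, at a log2 change of 0.18 (SE 0.17).

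Of the other transcription regulators, *Egr1*, a zinc finger factor of the serum response, was called higher in neutrophil-like, macrophage-like and dendritic epidermal T-like cells. Its level was low: 223, 87.3, 127 and 165 CPM in neutrophil-like cells, at a log2 change of 2.02 (SE 0.22). In the epidermal T-like cells it was 145, 119, 113 and 120.1 CPM, and the 4 libraries were close. Dendritic-like cells held 44.3, 12.05, 19.7 and 19.9 CPM, at a log2 change of -1.44 (SE 0.32), and monocyte-like cells 51.4, 14.3, 17.7 and 28.4 CPM, at -1.12 (SE 0.28). The macrophage-like call of *Egr1* was lost without hucMSC-Exo replicate 2 (0.39). In the IL-17 gamma delta T-like class, where *Egr1* was called lower by -0.91 (SE 0.28) and the call was lost with all deposited cells (-0.34) and with no library block (-0.87), the Control 2 value of 5.38 CPM rests on 4 UMIs.

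*Atf3*, a stress-induced member of the ATF family that can repress inflammatory genes, was called higher in macrophage-like, neutrophil-like and monocyte-like cells, but not in dendritic-like cells. Macrophage-like cells held 579.9, 278, 286 and 465 CPM, at a log2 change of 1.19 (SE 0.21), neutrophil-like cells had a log2 change of 1.31 (SE 0.23) and monocyte-like cells of 0.69 (SE 0.22). Alpha beta T-like cells held 67.3, 62.4, 103 and 97.8 CPM, with a log2 change of -1.66 (SE 0.27), and lay below every macrophage-like library. In neutrophil-like cells *Atf3* stood at 223, 298, 437 and 307 CPM, with Control 1 the lowest library, where it was the highest for *Fos* and *Junb*. The monocyte-like call was lost without Control replicate 1 (log2 change 0.47), without hucMSC-Exo replicate 2 (0.55) and with DESeq2 (0.59).

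*Ier2*, a small nuclear regulator, was called higher in neutrophil-like cells, by 0.80 (SE 0.16), and in IL-17 gamma delta T-like cells. IL-17 gamma delta T-like cells held 319.6, 168, 202 and 197 CPM, at a log2 change of 0.68 (SE 0.15), and macrophage-like cells 88.3, 44.0, 37.2 and 91.0 CPM, at -1.20 (SE 0.16) with an adjusted p of 2.11e-07. The 2 ranges did not overlap. Macrophage-like cells were thus higher in 7 members, among them *Fos*, *Jun* and *Atf3*, and lower in *Ier2*.

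The feedback genes *Dusp1* and *Zfp36* were called higher in neutrophil-like and macrophage-like cells and lower in all 3 T-like classes. Neutrophil-like cells held 1968, 1577, 1199.7 and 1229.6 CPM of *Dusp1*, a mean of 1494 ± 359.8 CPM (SD, n = 4), with a log2 change of 2.07 (SE 0.11) and an adjusted p of 1.22e-16. The next class, macrophage-like cells, held 1105, 679, 530.5 and 822 CPM, and its highest library was below the lowest neutrophil-like one. *Dusp1* was lower in IL-17 gamma delta T-like cells by a log2 change of -0.81 (SE 0.14), in alpha beta T-like cells by -0.94 (SE 0.14) and in dendritic epidermal T-like cells by -0.69 (SE 0.14). The epidermal T-like cells were therefore higher in *Fos*, *Fosb*, *Jun* and *Egr1* and lower in both feedback genes.

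For *Zfp36* the monocyte-like cells held 1015, 759.6, 489.8 and 775 CPM, at a log2 change of 1.04 (SE 0.14), and the neutrophil-like cells 1434, 643, 427 and 698 CPM, at 1.22 (SE 0.15). Alpha beta T-like cells held 216, 155, 168 and 229 CPM, at -1.59 (SE 0.18). *Zfp36* was also called higher in dendritic-like cells, by 0.44 (SE 0.15), while *Egr1*, *Jun* and *Dusp1* were lower there. That *Zfp36* call was lost in 5 alternatives: without Control replicate 2 (0.40), without hucMSC-Exo replicate 1 (0.28), without the top doublet scores (0.35), with no library block (0.39) and with library sizes alone (0.26).

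*Hspa1a* was the member called lower in neutrophil-like cells, where 7 others were called higher and *Fosb* and *Junb* did not pass. These cells held 178, 219.9, 279.6 and 251 CPM, a mean of 232 ± 43.6 CPM (SD, n = 4), and were called lower, at a log2 change of -1.05 (SE 0.36) and an adjusted p of 0.0136. The call was lost without hucMSC-Exo replicate 2, at a log2 change of -0.88. The higher call in dendritic epidermal T-like cells was lost without that library too, at 0.83. Dendritic epidermal T-like cells held 1637, 980.5, 853 and 2438 CPM, with a log2 change of 1.01 (SE 0.28), and macrophage-like cells 2266, 877, 598 and 1233 CPM, with 0.97 (SE 0.28). Every library of these 2 classes was above every neutrophil-like library. *Hspa1b* gave log2 changes of -1.48 (SE 0.35), 1.65 (SE 0.25) and 1.16 (SE 0.25) in the same 3 classes. With no library block the *Hspa1a* calls of the latter 2 classes were lost, at 0.80 and 0.90.

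**Figure D2:**
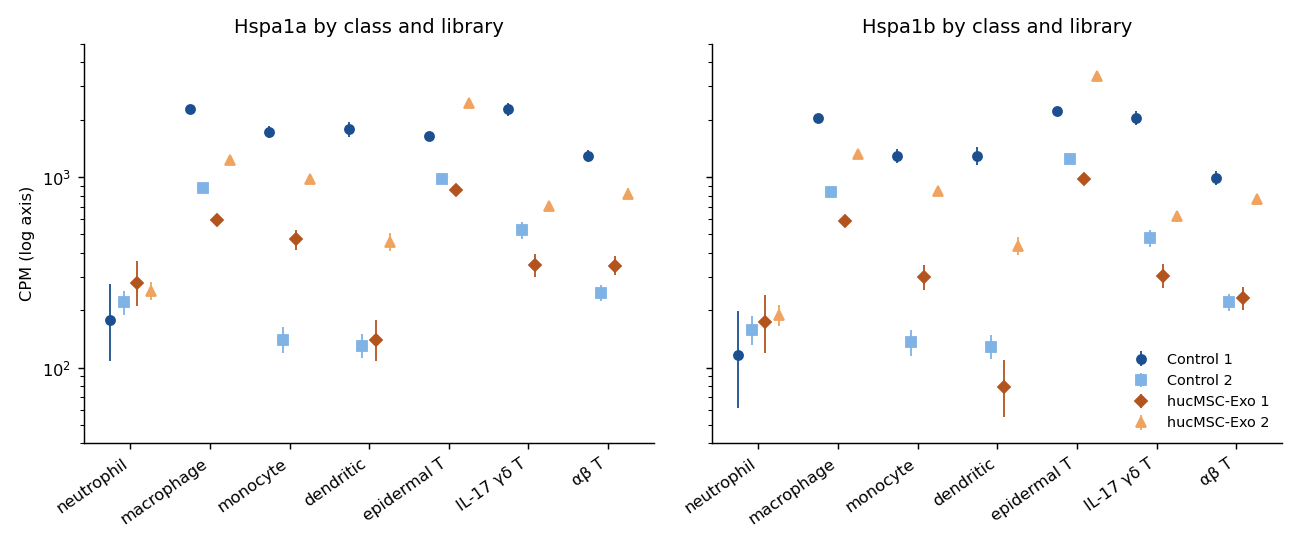
CPM (log axis) of *Hspa1a* and *Hspa1b* in the 7 classes, 1 point per library with its 95% Poisson interval, which covers counting error only. In every class but the neutrophil-like one, Control 1 and hucMSC-Exo 2 lie above Control 2 and hucMSC-Exo 1, and the neutrophil-like points for *Hspa1a* lie between 178 and 280 CPM.

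The other genes of the same pathways were taken from lists, and the most abundant of each list are given by name. Of 33 other immediate early genes tested, 24 were called higher and 3 lower in neutrophil-like cells, where 27.5% of all genes were higher and 26.0% lower, with a median log2 change of 1.27, and 2 higher and 19 lower in alpha beta T-like cells, where 26.8% of all genes were higher and 21.3% lower, with a median of -0.67. *Cebpb*, a factor of myeloid differentiation, had a log2 change of 3.39 (SE 0.08) in neutrophil-like cells, and *Ier3*, a survival regulator, 2.84 (SE 0.16) in monocyte-like cells. *Btg1*, an inhibitor of proliferation, was higher in neutrophil-like cells by 1.43 (SE 0.11). Of 19 other feedback genes, 9 were higher and 4 lower in neutrophil-like cells, 9 higher and 7 lower in IL-17 gamma delta T-like cells (22.5% and 22.7% of all genes), and 4 higher and 5 lower in macrophage-like cells (31.3% and 20.1%). The other 4 classes had 3 to 6 higher and 5 to 7 lower. *Nfkbia*, the inhibitor of NF-kB, was higher in neutrophil-like cells by 2.01 (SE 0.14). *Zfp36l1*, a paralog of *Zfp36*, was higher in IL-17 gamma delta T-like cells by 1.35 (SE 0.14), where *Zfp36l2* was lower by -1.04 (SE 0.19).

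Of 26 other heat shock genes tested, 17 were called higher and 1 lower in dendritic epidermal T-like cells, where 30.8% of all genes were higher and 25.2% lower, with a median log2 change of 0.70, and 4 higher and 17 lower in neutrophil-like cells, with a median of -0.99. *Hspa8*, the constitutive relative of *Hspa1a*, had a log2 change of -1.73 (SE 0.14) in neutrophil-like cells, *Hsp90ab1* had -1.43 (SE 0.14), and *Ubb*, a ubiquitin gene, had 0.64 (SE 0.14) in the other direction. Of 13 kinases upstream of AP-1 and serum response factor, 7 were higher and 1 lower in monocyte-like cells (25.7% and 15.7% of all genes), 1 higher and 8 lower in IL-17 gamma delta T-like cells, and none higher and 5 lower in alpha beta T-like cells. *Mapkapk2*, a kinase below p38 that acts on ZFP36, had a log2 change of 2.00 (SE 0.12) in neutrophil-like cells and -1.86 (SE 0.15) in dendritic epidermal T-like cells. *Map2k3*, which activates p38, had 0.97 (SE 0.14) in neutrophil-like cells. Of 11 genes of the integrated stress response and of oxidative stress, 6 were higher and 2 lower in neutrophil-like cells and none higher and 7 lower in alpha beta T-like cells. *Hspa5*, the chaperone of the endoplasmic reticulum, had -0.96 (SE 0.13) in neutrophil-like cells, *Hmox1*, which breaks down heme, 4.68 (SE 0.16) in monocyte-like cells, and *Txnip*, an inhibitor of thioredoxin, 2.86 (SE 0.17) in neutrophil-like cells.

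The same gene also differed between libraries within a class. In 67 of the 70 pairs the mean was at least 50 CPM, and in 39 of these (58.2%) the highest library held at least 2 times the level of the lowest. Over all genes of that level in the 7 classes the share was 18.9%. Macrophage-like cells had 10 of 10 members past that fold (21.0% of all genes), monocyte-like cells 7 of 9 (22.0%), neutrophil-like cells 6 of 10 (40.6%), IL-17 gamma delta T-like cells 5 of 9 (13.7%), alpha beta T-like cells 5 of 10 (10.1%), dendritic-like cells 4 of 9 (22.9%) and dendritic epidermal T-like cells 2 of 10 (6.38%). Control 1 was the highest library in 49 of the 70 pairs (70.0%), where 32.3% of all gene and class pairs had it highest. hucMSC-Exo 1 was highest in 11 pairs (24.3% of all gene and class pairs), hucMSC-Exo 2 in 9 (20.2%) and Control 2 in 1 (23.2%). Control 2 was the lowest in 40 pairs and hucMSC-Exo 1 in 23, and the share of all pairs was not computed for the lowest. Of 2676 genes, 6.46% were lowest in Control 1 in at least 6 classes, 0.859% in Control 2, 2.80% in hucMSC-Exo 1 and 0.486% in hucMSC-Exo 2. Control 1 was the highest in at least 6 classes for 4.45% of them, so over all genes it was often extreme in both directions. The library most often highest was thus titled a Control, and so was the one most often lowest.

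**Figure D3:**
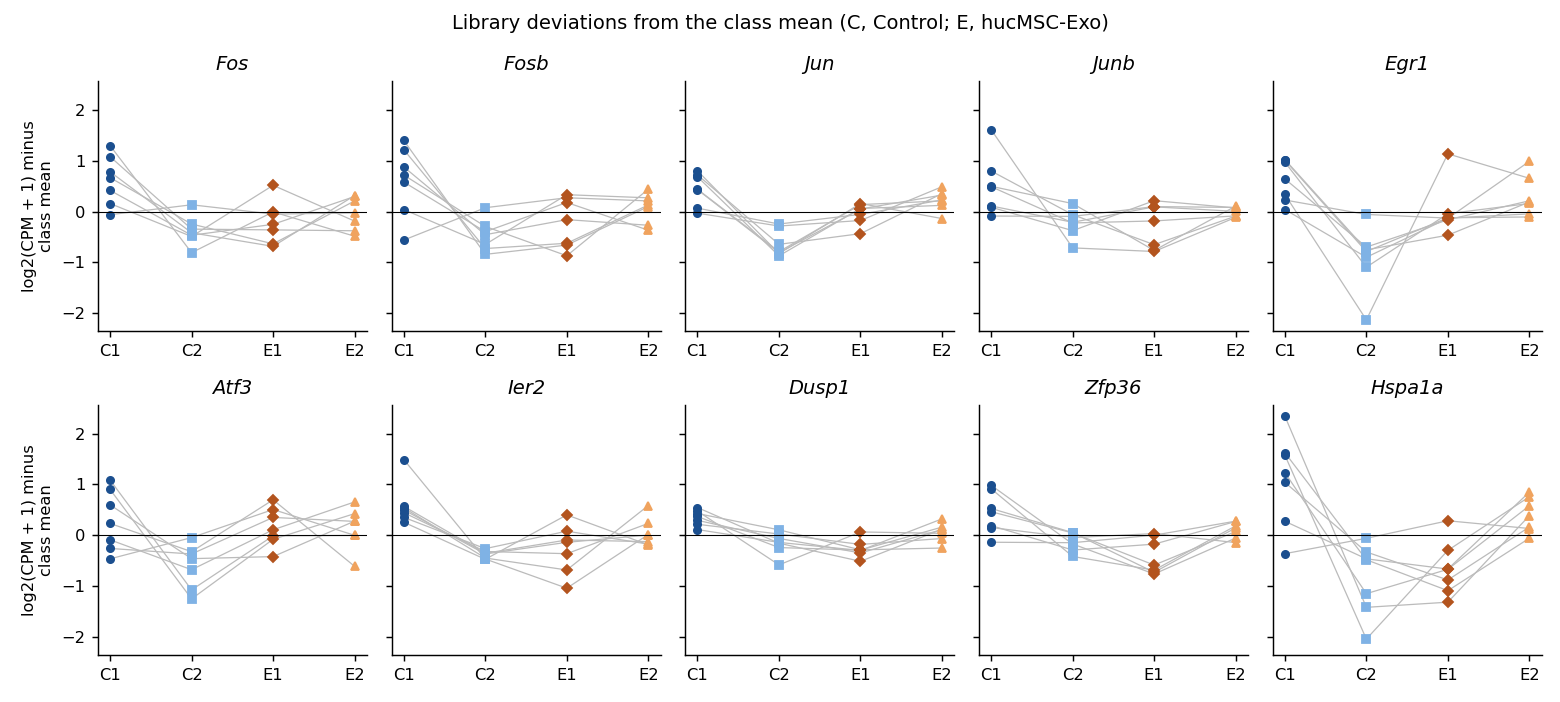
Log2(CPM + 1) of each member in each library minus the mean of the 4 libraries in the same class, with 1 point per class and grey lines joining the points of a class. Control 1 (C1) lies above 0 for most classes and Control 2 (C2) below, most widely for *Hspa1a*, where C1 reaches above 2 in dendritic-like cells.

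Of the members, *Hspa1a* had the largest median ratio between libraries. Its mean over the 7 classes was 1592 CPM in Control 1, 446 in Control 2, 433 in hucMSC-Exo 1 and 983 in hucMSC-Exo 2. Control 1 and hucMSC-Exo 2 were both above the other libraries in 6 of the 7 classes, and 0.673% of 2676 genes showed that in at least 6 classes. *Jun* and *Egr1* were the other members that did. The ratio of the highest to the lowest library for *Hspa1a* was 13.7 in dendritic-like cells, with 1781, 130.4, 140.0 and 458 CPM, and fell to 8.03 without the cells of the top doublet scores and to 7.96 with all deposited cells. It was 12.4 in monocyte-like cells, with 1726, 139.6, 470.4 and 979 CPM. In IL-17 gamma delta T-like cells the level was 2268, 526, 345 and 706 CPM and in alpha beta T-like cells 1287, 246, 343 and 818 CPM. That median over the classes was 5.23, against 1.58 for *Dusp1* as the lowest, and 22 of 2676 genes were at or above it. In neutrophil-like cells the ratio was 1.57, and the libraries overlapped in their counting intervals; without the cells of the top doublet scores it was 3.89.

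Of 19 other heat shock genes, *Hspb1*, *Hspa5*, *Hspa9* and *Hsp90ab1* had Control 1 and hucMSC-Exo 2 on top in none of the 7 classes, whereas *Hspa1b* and *Hsph1*, a co-chaperone of HSPA1A, did in 6 classes each. *Hspa1b* averaged 1431, 457, 379 and 1080 CPM over the classes, and *Hsph1* 204, 68.4, 73.1 and 149 CPM. *Dnajb1*, another co-chaperone, was highest in Control 1 in all 7 classes, at 380.0, 129, 156 and 259 CPM. *Hspa9*, *Hspb1*, *Hsph1* and *Dnajb1* were named after their values were seen. Of the 133 pairs of 19 other heat shock genes, Control 1 was highest in 69 (51.9%), and of the 161 pairs of 23 other immediate early genes in 71 (44.1%).

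Neutrophil-like cells of Control 1 stood apart in CPM from those of the other libraries. They are 54 cells with 112270 UMIs, and *Junb* was at 4819 CPM there against 915 to 1458 in the others, *Fos* at 1630.0 against 593 to 606 and *Ier2* at 445 against 76.3 to 160. *Dusp1* was at 1968 CPM against 1200 to 1577, the highest but close to the next, and *Atf3* and *Hspa1a* were the lowest of the 4 in CPM. CPM leaves out the TMM scaling factor of the class test. For neutrophil-like cells this factor was 1.22 in Control 1, against 0.67 in Control 2, 0.81 in hucMSC-Exo 1 and 0.70 in hucMSC-Exo 2. A larger factor lowers the scaled level, so a lead of Control 1 in CPM is smaller or absent after that scaling. For *Hspa1a* the Control 1 value rests on 20 UMIs. The *Hspa1a* ratio between libraries moved from 1.57 to 3.89 without the cells of the top doublet scores. Those cells made up 0% of neutrophil-like cells in Control 1 and 1.05% to 3.98% in the other libraries. The move therefore came from the other libraries, and the place of Control 1 as the lowest for *Hspa1a* depends on those cells. In the shares of thinned cells given below, Control 1 was instead the highest library for *Hspa1a*. In the same cells the 10 neutrophil markers summed to 57237 CPM, against 110287 to 121373 in the other libraries, and their part in the difference was not tested. In dendritic epidermal T-like cells the ratios between the highest and the lowest library ran from 1.14, for *Junb* and *Fos*, to 2.54 for *Atf3* and 2.86 for *Hspa1a*, with *Ier2* at 1.54.

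The share of cells with at least 1 UMI of a gene depends on depth. The class medians ran from 2118 UMIs per cell in neutrophil-like to 7583 in dendritic-like cells, so each cell was thinned to 1000 UMIs, which left out 30, 60, 30 and 50 cells. Among macrophage-like cells, 56.3% (95% exact binomial interval 47.8% to 64.6%), 20.1% (16.3% to 24.3%), 21.5% (16.2% to 27.5%) and 35.7% (29.2% to 42.6%) then held *Hspa1a*, and without thinning 80.1%, 40.4%, 40.4% and 55.5%. Control 1 lay above the intervals of the other libraries. Neutrophil-like cells held it in 19.2%, 6.43%, 11.8% and 10.6% of cells, and the lowest single share was 5.16%, in dendritic-like cells of Control 2. No class known to lack *Hspa1a* was measured as a background. For *Fos*, dendritic epidermal T-like cells held 49.6%, 53.8%, 53.3% and 50.4%, with overlapping intervals, and alpha beta T-like cells 11.97%, 9.58%, 16.7% and 12.1%. Intervals cover counting error only.

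The groups as titled were compared by edgeR's quasi-likelihood test on the UMI sums of 2 libraries a group. If the letters in the matrix names hold instead, each group as titled mixes treated and untreated mice. Neutrophil-like cells numbered 54 in Control 1 and 95 in hucMSC-Exo 1, and 352 in Control 2 and 554 in hucMSC-Exo 2. These numbers were closer within the pairs of the letters than within the titled groups. Paired by the letters, the 2 sets did not overlap in these numbers, whereas the groups as titled did. The study reports more neutrophils with exosomes, and which pairing is right was not tested. No member was called in any class or over all kept cells with low counts filtered: 0 of 80 pairs, against 0.0% of 4234 to 12117 genes in each fit. At an unadjusted p of 0.05 in the same edgeR test, 5 of the 80 passed. These were 1 of 10 in dendritic epidermal T-like cells, where 354 of 8378 genes passed, and 2 of 10 in IL-17 gamma delta T-like cells (194 of 5753). The others were 2 of 10 in alpha beta T-like cells (235 of 7198). No member passed in the other fits, and the fewest genes passed in macrophage-like cells (57 of 7847). DESeq2 called 1 gene in each of 2 fits and none in the other 6. Over all kept cells *Hspa1a* stood at 1696, 500.4, 504 and 997 CPM, and its log2 change in hucMSC-Exo over Control was -0.42 (SE 0.59). *Fos* stood at 1006, 562, 589 and 645 CPM (-0.24 (SE 0.28)) and *Jun* at 589, 311, 378 and 553 CPM (0.16 (SE 0.33)). In each of the 3 the hucMSC-Exo libraries lay between the 2 Control libraries, so the groups overlapped. Changes of the others over all kept cells were 0.10 (SE 0.26) for *Fosb*, 0.20 (SE 0.34) for *Egr1*, 0.18 (SE 0.27) for *Atf3*, -0.12 (SE 0.25) for *Dusp1* and -0.26 (SE 0.28) for *Zfp36*, and those of *Junb* and *Ier2* were within 0.01 of 0 with an SE of 0.22 and 0.29. The libraries also differed in their mix of classes. Dendritic epidermal T-like cells, the class with the highest mean of *Hspa1a*, made up 39.8%, 13.5%, 26.3% and 13.7% of kept cells. Neutrophil-like cells, the class with the lowest, made up 5.67%, 16.97%, 6.71% and 27.7%. The part of this mix in the levels and changes over all kept cells was not tested.

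**Figure D4:**
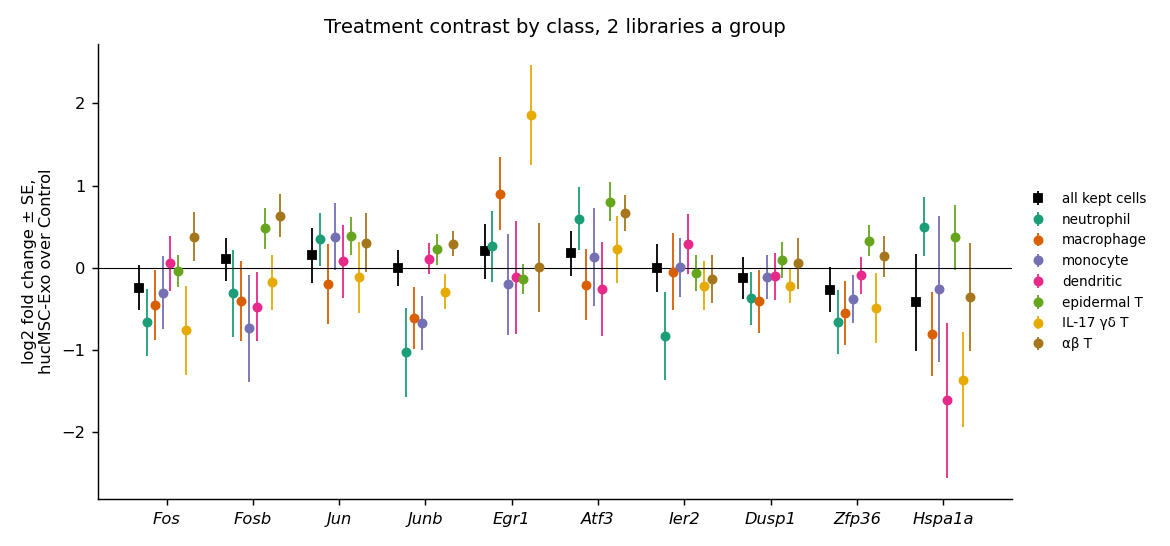
Log2 fold change, hucMSC-Exo over Control as titled, with its SE, for each member over all kept cells (black squares) and in each class (circles), from edgeR with 2 libraries a group. The values run from -1.61 to 1.86 with SEs from 0.16 to 0.95, and none passed.

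By class, *Hspa1a* had log2 changes of -1.61 (SE 0.95) in dendritic-like cells, -1.36 (SE 0.58) in IL-17 gamma delta T-like cells and -0.81 (SE 0.51) in macrophage-like cells, 0.50 (SE 0.36) in neutrophil-like and 0.37 (SE 0.40) in dendritic epidermal T-like cells, -0.26 (SE 0.89) in monocyte-like cells and -0.35 (SE 0.66) in alpha beta T-like cells. With no filter on low counts, *Hspa1a* was called lower in hucMSC-Exo in dendritic-like cells (-1.49, adjusted p 0.00167, edgeR) and in IL-17 gamma delta T-like cells (-1.25, adjusted p 1.13e-05). With Control replicate 1 left out, the sign of the change turned in 5 of these 7 classes and over all kept cells, and in monocyte-like cells *Hspa1a* was then called higher in hucMSC-Exo, by 2.50 (adjusted p 9.39e-08, edgeR). With Control replicate 2 left out instead, *Hspa1a* was called lower in hucMSC-Exo in monocyte-like, dendritic-like and IL-17 gamma delta T-like cells, by -1.15, -2.50 and -2.04, and without hucMSC-Exo replicate 2 it was called lower in dendritic-like, IL-17 gamma delta T-like and alpha beta T-like cells, by -2.67, -1.99 and -1.12. The direction of *Hspa1a* between the groups thus depended on which libraries entered. In 13 of the 67 pairs (19.4%) the groups did not overlap, 8 of them higher in hucMSC-Exo, and over all genes of that level 27.7% did not. These were 4 in neutrophil-like cells (27.7% of all genes), 4 in dendritic epidermal T-like cells (33.4%), 2 in alpha beta T-like cells (32.6%), 1 each in macrophage-like (13.5%), monocyte-like (26.7%) and IL-17 gamma delta T-like cells (29.1%), and none in dendritic-like cells (30.9%). Whether the difference between the groups differed by class was tested with all class-by-group terms together: no gene was called of 9261 (0.0%), with 192 at an unadjusted p under 0.05, and the smallest unadjusted p of a member was 0.0605, for *Junb*.

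Correlations between the members are given as a description, and the share for other pairs of genes was not computed. With each class centred on its own mean, log2(CPM + 1) of all 45 pairs of members had a correlation above 0 over the 28 sums of a class and a library, with a median Pearson r of 0.64 and a range from 0.09 (*Atf3* and *Zfp36*) to 0.85 (*Junb* and *Zfp36*). Without centring, r ran from -0.29 (*Atf3* and *Ier2*) to 0.80 (*Fos* and *Jun*). The sums of 1 library share its mouse, its processing and its depth, so these are descriptions. Of 5114 other genes with a mean of at least 20 CPM, those most like the mean of the members were *Mafk* (r = 0.80), *Chka* (0.78), *Map3k8* (0.76), *Mapre2* (0.72), *Tet3* (0.70), *Pnpla7* (0.70), *AB124611* (0.69), *Gadd45g* (0.69), *Cxcl10* (0.68) and *Ier5* (0.68), over the same 28 sums.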

How the data were processed

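Per the labels, the authors captured cells with droplet 3′ chemistry and produced the deposited UMI counts with Cell Ranger 6.1.2 on mm10. The deposited matrices hold whole-number UMI counts per gene and cell, with 1 library per mouse. The study's limits, 200 to 3000 genes a cell and no more than 10% of UMIs from mitochondria, were applied. Each cell was placed in the class of which it showed the largest share of markers, with at least 3 detected, and skin lists were measured but did not compete, a choice made after the data were seen. The study's methods state that doublets were removed with DoubletFinder; whether the deposited cells are those before or after this step is not stated, and no further doublets were removed here. Counts were summed per class and library and tested with edgeR 4.0.16 (R 4.3.3): quasi-likelihood, TMM scaling, Benjamini-Hochberg adjustment at 0.05. The class contrast had library as a block, and the treatment contrast had none. DESeq2 1.42.0 was an alternative. CPM and shares were computed in Python 3.11.15. All 10 members are named, with the 3 most abundant genes of each list, of which 1 is not reported here, and the 10 most alike in pattern. The members and lists were chosen with earlier results of these data known. The steps were tested on simulated data.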

Additional observations from a re-analysis of the deposited data

How the results depend on the processing

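Of the 46 called pairs of a member and a class, 32 kept direction and call under every alternative run, and of 598 alternative values 33 lost the call and none turned. Calls were lost with all deposited cells (8), with no library block (8), without hucMSC-Exo replicate 2 (7), without Control replicate 2 (4), without hucMSC-Exo replicate 1 (2), and 1 each without Control replicate 1, with DESeq2, with library sizes alone and without the top doublet scores. The cause was not tested.

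No gene was called between the groups in the main test. With no filter on low counts, 7 genes were called in neutrophil-like, 22 in macrophage-like, 27 in monocyte-like, 23 in dendritic-like, 49 in dendritic epidermal T-like, 25 in IL-17 gamma delta T-like and 53 in alpha beta T-like cells, and 97 in the test of differences by class, where all deposited cells gave 1. DESeq2 called 1 gene in dendritic-like and 1 in alpha beta T-like cells. Leaving out 1 library at a time gave 0 to 2 genes over all kept cells, 0 to 11 in neutrophil-like, 0 to 127 in macrophage-like, 1 to 153 in monocyte-like, 2 to 90 in dendritic-like, 1 to 129 in dendritic epidermal T-like, 1 to 77 in IL-17 gamma delta T-like and 0 to 61 in alpha beta T-like cells, and 0 to 28 in the test by class. The arm left with 1 library was assumed to vary like the other group.

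Replicate numbers did not pair the libraries: deviations of libraries with the same number correlated at -0.24 in macrophage-like and -0.11 in monocyte-like cells and between -0.02 and 0.05 in the other classes. With the replicate number as a block, 3 genes were called in neutrophil-like, 11 in dendritic epidermal T-like and 1 in alpha beta T-like cells. With the numbers crossed, an alternative added after the data were seen, 10 were called in macrophage-like, 21 in monocyte-like, 14 in dendritic-like and 3 in alpha beta T-like cells.

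Changes near 0 turned sign over all kept cells. Junb stood at 0.0032 with RLE factors, 0.0033 with DESeq2, 0.011 without the top doublet scores, 0.052 with all deposited cells, 0.0037 with the replicate block and 0.0037 with it crossed. Ier2 stood at 0.0063, 0.0064, 0.064, 0.13, 0.041 and 0.040 in the same order. Hspa1a in neutrophil-like cells stood at -0.21 when skin lists competed in placing cells, and in monocyte-like cells at 0.57 with the replicate block and 0.54 with it crossed. Leaving out 1 library gave, over all kept cells, -0.52 to 0.11 for Fos, -0.15 to 0.40 for Fosb, -0.16 to 0.55 for Jun, -0.15 to 0.15 for Junb, -0.16 to 0.68 for Egr1, -0.082 to 0.48 for Atf3, -0.32 to 0.40 for Ier2, -0.41 to 0.12 for Dusp1, -0.64 to 0.032 for Zfp36 and -0.99 to 0.56 for Hspa1a. By class, Hspa1a ran from -1.35 to 0.084 in macrophage-like, -1.15 to 2.50 in monocyte-like, -2.67 to 1.20 in dendritic-like, -0.51 to 0.93 in dendritic epidermal T-like, -2.04 to 0.041 in IL-17 gamma delta T-like and -1.12 to 1.27 in alpha beta T-like cells.

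Shares of cells moved with depth, as the mean of the 4 libraries: Hspa1a in macrophage-like cells was 54.1% without thinning, Fos in dendritic epidermal T-like cells 37.7% at 500 UMIs and 75.8% without thinning, and Jun in neutrophil-like cells 29.4% and 67.0%. The planned automatic doublet threshold was not run, since it marked 30 of 6443 cells (0.466%), and was replaced, after the data were seen, by leaving out the top 6% of scores.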
